A study of Homo sapiens with 2 samples.

Results

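FOXA1, GATA2, the coactivators NCOA1, NCOA2 and NCOA3, the corepressor NCOR1, the SUMO ligase PIAS1 and the glucocorticoid receptor gene NR3C1 were followed in C4-2B cells. These 8 genes work with or beside the androgen receptor, and they were found by symbol among 49672 symbols in 62271 rows of each deposited table. Of the 8, 7 reached 1 RPKM (reads scaled to transcript length and library total) in at least 1 library, the level at which a gene was counted as expressed, and NR3C1 did not. The cells were treated with 2.5 µM MA4-022-1, labelled as an inhibitor of BET bromodomain proteins and kinases, or with DMSO as vehicle. C4-2B is a prostate cancer line derived from LNCaP that is described in the labels as androgen-independent and as metastatic to bone, so it stands for castration-resistant disease in 1 cell line. Each group had 1 library, which leaves every difference without replicates and allows no p-value. How long the cells were exposed is not stated in the labels.

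The androgen receptor is a ligand-activated transcription factor that drives luminal prostate cells and most prostate cancers. Pioneer factors of the FOXA family open its binding sites, and GATA2 binds beside it at many enhancers. Once on DNA the receptor recruits p160 coactivators, which bring acetyltransferases, while NCOR1 holds histone deacetylases at the genes it represses. BET proteins read the acetyl marks that such coactivator complexes leave.

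All 12 luminal prostate markers reached 1 RPKM in both libraries, with KLK2 and KLK3 read from 1 joined row. Their summed levels were 3423 RPKM with MA4-022-1 and 3270 RPKM with DMSO, and the joined row held 1675 RPKM with MA4-022-1 and 1528 RPKM with DMSO. Single markers differed more than the sum, such as TRPM8 at 6.42 RPKM with MA4-022-1 and 40.8 RPKM with DMSO. With MA4-022-1, markers of basal epithelium summed to 1.08 RPKM, those of endothelium to 0.291, those of blood cells to 1.72 and those of stroma to 9.72 RPKM. With DMSO, the same lists summed to 0.802, 0.149, 1.02 and 5.65 RPKM. KRT5, LUM, PECAM1 and KDR were listed at 0 in both libraries. Low values moved in steps of whole reads that placed the normalising totals at 19879624 reads with MA4-022-1 and 27033545 reads with DMSO. Counting intervals below are at 95%, use reads estimated from these totals, and cover counting error only, since duplicated PCR reads are not independent molecules. In cultured cells, as in any bulk sample, fewer cells that express a gene and less RNA per cell cannot be told apart.

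All 7 expressed genes of the group stood higher with MA4-022-1, and 1 of them, the coactivator gene NCOA3, passed 2-fold. The median of their log2 ratios of RPKM + 1, MA4-022-1 over DMSO, was 0.43, against -0.02 over all 15435 expressed genes. Past 2-fold were 7.72% of all expressed genes in the higher direction and 9.58% in the lower one, and for protein-coding symbols alone these shares were 4.12% and 9.5%. Beside such shares, 1 gene of 7 does not set the group apart. A ratio above 0 was found in 48.9% of all expressed genes and in 7 of these 7. PIAS1 came next after NCOA3. FOXA1, NCOA1, NCOR1 and NCOA2 lay within a narrow band, and GATA2 was nearest to equal levels. FOXA1 lay in that band with its 4 rows summed. With its highest row alone it had a log2 ratio of 0.29, below NCOA1, NCOR1 and NCOA2. Under all 8 alternative scalings, pseudocounts and row choices applied to single genes, each of the 8 genes kept a ratio above 0. Pseudocounts cannot turn the sign of a ratio, no row was joined, and row choices could alter FOXA1 and GATA2 alone. For the other genes only a scaling could have turned the sign, and of the scalings only equal sums lowered the ratios.

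**Figure D1:**
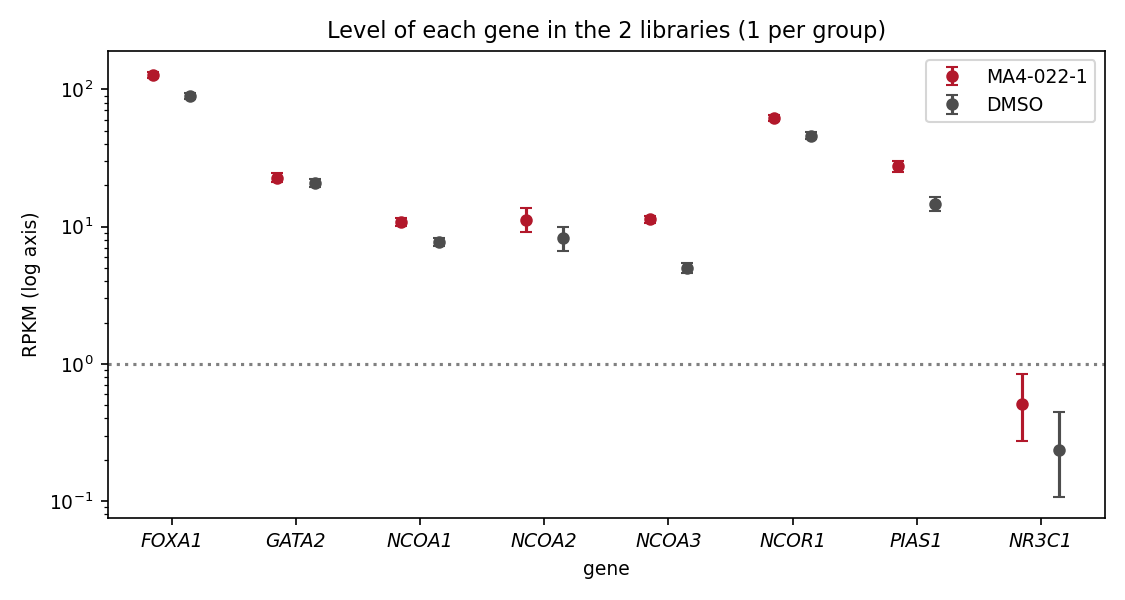
RPKM of the 8 genes on a log axis in the MA4-022-1 library (red, left) and the DMSO library (grey, right), 1 library per group, with bars for the 95% Poisson counting interval and a dotted line at 1 RPKM. FOXA1 and NCOR1 have the highest levels in both libraries and NR3C1 lies below the line in both.

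The sequences before the transcription starts of NCOA3, PIAS1 and FOXA1 are shown first, since NCOA3 and PIAS1 had the largest ratios among the 7 expressed genes and FOXA1 the highest level. The 250 bases upstream of the start come from RefSeq on GRCh38.p14, which is not the build of the deposited loci. RefSeq promoter windows were matched for 7 of the 8 genes. Capitals mark matches to any of 6 motifs searched on both strands, which were the E-box CACGTG, the GC box GGGCGG, the forkhead motif TGTTTNC, the GATA motif AGATAA, the TATA box TATAAA and the steroid receptor hexamer AGAACA.
NCOA3, chr20:47501637-47501886, plus strand: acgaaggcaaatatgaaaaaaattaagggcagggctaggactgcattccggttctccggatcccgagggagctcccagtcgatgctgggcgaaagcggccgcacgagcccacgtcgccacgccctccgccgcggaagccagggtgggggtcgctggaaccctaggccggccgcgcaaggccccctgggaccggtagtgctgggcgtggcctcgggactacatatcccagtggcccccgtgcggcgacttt
PIAS1, chr15:68054065-68054314, plus strand: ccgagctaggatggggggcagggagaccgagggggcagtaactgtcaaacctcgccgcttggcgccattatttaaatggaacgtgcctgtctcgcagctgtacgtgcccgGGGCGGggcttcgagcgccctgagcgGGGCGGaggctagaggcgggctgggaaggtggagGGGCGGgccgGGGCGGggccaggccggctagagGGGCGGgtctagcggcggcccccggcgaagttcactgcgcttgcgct
FOXA1, chr14:37595250-37595499, minus strand: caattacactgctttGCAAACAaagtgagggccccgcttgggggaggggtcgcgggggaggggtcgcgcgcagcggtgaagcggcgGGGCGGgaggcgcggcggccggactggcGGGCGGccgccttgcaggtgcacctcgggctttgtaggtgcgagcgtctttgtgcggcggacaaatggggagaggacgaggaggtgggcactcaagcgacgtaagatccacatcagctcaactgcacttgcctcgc
The NCOA3 window held none of the 6 motifs. The PIAS1 window held 5 GC boxes, and the FOXA1 window held 2 GC boxes and 1 forkhead motif. Among all 35116 windows of this length, 42.6% held a GC box, 15.5% the forkhead motif, 6.34% the E-box, 9.17% the GATA motif, 10.7% the TATA box and 12.4% the hexamer. The GC content was 66.4% for NCOA3, 70.8% for PIAS1 and 67.2% for FOXA1, against a median of 58.0% over all windows. These matches describe the letters alone.

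FOXA1, the pioneer factor that opens chromatin for the androgen receptor, had the highest level of the group. Its rows summed to 126.9 RPKM with MA4-022-1 and 89.7 RPKM with DMSO. The ratio of these levels was 1.41, with a counting interval from 1.31 to 1.52, and the log2 ratio of RPKM + 1 was 0.50. Of all expressed genes, 22.5% had a higher log2 ratio.

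The FOXA1 value came from 4 deposited rows at 1 locus, chromosome 14 from 38058983 to 38672128 on hg19, an interval that also spans neighbouring genes. Rows of each chromosome ran through the loci and then ran through them again. Of 23467 symbols with a single row, 95.7% lay in the run of their annotated strand, the plus strand first. The main FOXA1 row lay in the run of the gene's own strand and stood at 100.2 RPKM with MA4-022-1 and 82.0 RPKM with DMSO, a ratio of 1.22. The other 3 rows lay in the run of the opposite strand. The first of them stood at 11.2 RPKM with MA4-022-1 and 5.44 RPKM with DMSO, the next at 7.93 RPKM with MA4-022-1 and 1.01 RPKM with DMSO, and the last at 7.46 RPKM with MA4-022-1 and 1.29 RPKM with DMSO. All 3 were higher with MA4-022-1, and the lower a row was with DMSO, the larger its ratio. These rows together made up 21.0% of the symbol's value with MA4-022-1 and 8.63% with DMSO, and their sum was 3.44 times as high with MA4-022-1. With the own-strand row alone the log2 ratio of FOXA1 was 0.29, against 0.50 for the sum. That row's ratio of 1.22 lay below the counting interval of the sum, 1.31 to 1.52. The labels do not state whether reads were counted by strand, and without strand, reads from a gene and from an antisense partner cannot be told apart.

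GATA2, a zinc finger factor that binds beside the receptor at enhancers, had nearly equal levels in the libraries. Its 3 rows summed to 22.7 RPKM with MA4-022-1 and 20.9 RPKM with DMSO. The ratio was 1.09 with a counting interval from 0.978 to 1.20, so a difference was not detectable at this depth by the median annotated transcript length. With the longest annotated transcript, which assigns more reads to the same RPKM, the interval ran from 1.01 to 1.17. The own-strand row stood at 15.1 RPKM with MA4-022-1 and 14.3 RPKM with DMSO. Of the 2 rows in the opposite run, one stood at 4.51 RPKM with MA4-022-1 and 3.43 RPKM with DMSO, and the other at 3.12 RPKM with MA4-022-1 and 3.20 RPKM with DMSO. Unlike the 3 such rows of FOXA1, these 2 had ratios of 1.31 and 0.974. The locus is chromosome 3 from 128198269 to 128222176 on hg19.

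A difference between strand runs was also seen over pooled rows of the whole table. Some symbols, such as ENO4 and GLYATL1P2, had many rows in the opposite run and so weigh more there. The ratios were not compared symbol by symbol. Among 365 symbols with rows of at least 1 RPKM in both runs, the median log2 ratio was 0.35 over 557 rows in the opposite run, against -0.01 over 368 rows in the own run. At least 2-fold higher were 31.2% of the rows in the opposite run and 7.61% of those in the own run, and at least 2-fold lower were 13.8% in the opposite run and 8.70% in the own run. The annotated strands are those of GENCODE on GRCh38, a later build than that of the loci. The part of strand assignment or row naming in these ratios was not tested.

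**Figure D2:**
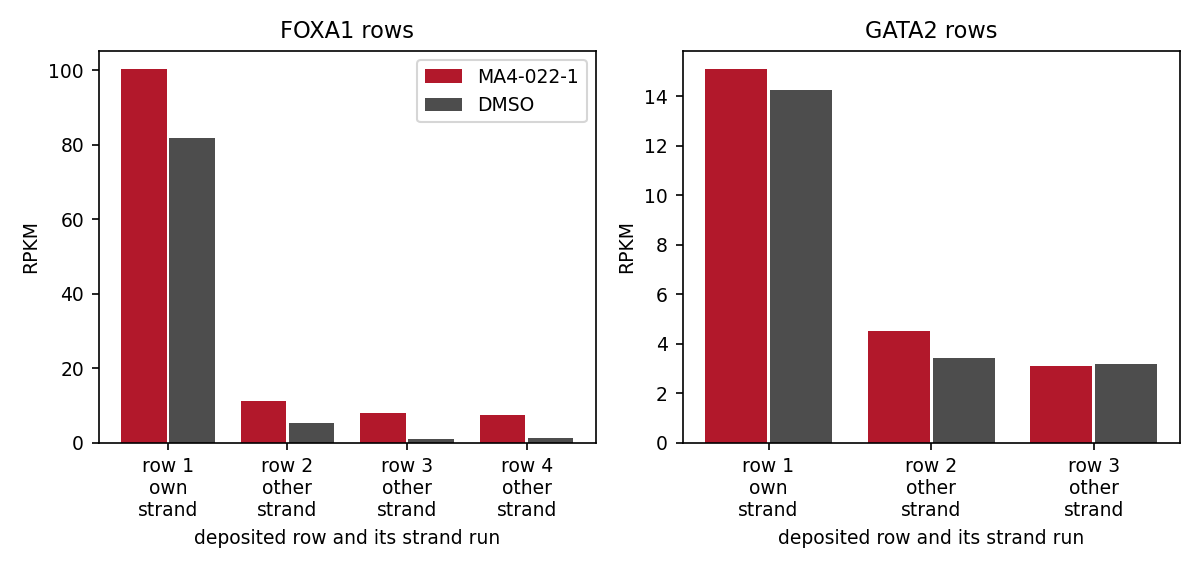
RPKM of each deposited row of FOXA1 (left panel) and GATA2 (right panel) in the MA4-022-1 library (red) and the DMSO library (grey), 1 library per group, with the strand run that holds the row. The 3 opposite-strand rows of FOXA1 are between 7.46 and 11.2 RPKM with MA4-022-1 and between 1.01 and 5.44 RPKM with DMSO.

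The p160 genes encode related coactivators that bind nuclear receptors through short leucine-rich motifs and recruit the acetyltransferases EP300 and CREBBP. NCOA1, also called SRC-1, stood at 10.8 RPKM with MA4-022-1 and 7.75 RPKM with DMSO, a ratio of 1.39 (counting interval 1.27 to 1.52). NCOA2, also called TIF2 or GRIP1, stood at 11.2 RPKM with MA4-022-1 and 8.19 RPKM with DMSO, a ratio of 1.37. Its counting interval was 1.02 to 1.82 with a median transcript length of 640 nt and 1.28 to 1.46 with the longest transcript of 8447 nt. NCOA3, also called SRC-3 or AIB1 and known as a gene amplified in breast cancer, stood at 11.3 RPKM with MA4-022-1 and 4.97 RPKM with DMSO. Its ratio was 2.26 with a counting interval from 2.04 to 2.51, and its log2 ratio of RPKM + 1 was 1.04, or 2.05-fold.

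NCOA3 was thus the lowest p160 gene in the vehicle library and level with its relatives in the treated one. Its interval of levels with DMSO, from 4.58 to 5.39 RPKM, lay below those of NCOA1 and NCOA2, whereas with MA4-022-1 the intervals of all 3 genes overlapped. The sum of the 3 genes was 33.3 RPKM with MA4-022-1 and 20.9 RPKM with DMSO, and NCOA3 made up 33.8% of it with MA4-022-1 and 23.8% with DMSO. The ratio of NCOA3 had a counting interval above those of NCOA1 and NCOA2 alike, and cultures of the same treatment were not compared. Of all expressed genes, 7.18% had a higher log2 ratio than NCOA3, and 25.3% and 26.3% had a higher one than NCOA1 and NCOA2. NCOA3 lay near the 2-fold limit and was below it with a pseudocount of 5 RPKM and with equal sums over the genes kept.

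On hg19 the deposited loci were chromosome 2 from 24714377 to 24993571 for NCOA1, chromosome 8 from 71021996 to 71316040 for NCOA2 and chromosome 20 from 46130600 to 46415360 for NCOA3. Each of the 3 genes had 1 row, in the run of its own strand. No row of the 8 genes was joined with another symbol.

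NCOR1, the scaffold that joins unliganded or antagonist-bound nuclear receptors to the deacetylase HDAC3, stood at 61.8 RPKM with MA4-022-1 and 46.0 RPKM with DMSO. The ratio was 1.35 (counting interval 1.24 to 1.45), close to those of NCOA1 and NCOA2. Its locus was chromosome 17 from 15879865 to 16256970 on hg19. The genome holds partial copies of NCOR1 to which short reads could be assigned, and the highest of these in the tables, NCOR1P3, stood at 4.19 RPKM with MA4-022-1 and 4.21 RPKM with DMSO. NCOR1P1 and NCOR1P2 were listed at 0 with MA4-022-1 and stood at 0.180 and 0.758 RPKM with DMSO. The 3 copies were thus far below NCOR1 itself in both libraries.

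PIAS1, which attaches the small modifier SUMO to transcription factors, stood at 27.4 RPKM with MA4-022-1 and 14.7 RPKM with DMSO. The ratio was 1.87 with a counting interval from 1.60 to 2.16, and the log2 ratio of RPKM + 1 was 0.86, or 1.81-fold. That interval used the median transcript length, and with the longest transcript it ran from 1.78 to 1.95. Of all expressed genes, 10.6% had a higher log2 ratio. The locus was chromosome 15 from 68346516 to 68549549 on hg19, and the single row lay in the run of the gene's own strand.

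NR3C1 encodes the glucocorticoid receptor, which can take over part of the androgen receptor's targets in resistant prostate cancer. It was the lowest gene of the group, at 0.507 RPKM with MA4-022-1 and 0.235 RPKM with DMSO, under 1 RPKM in both libraries. With the median transcript length these levels were worth 14.2 reads with MA4-022-1 and 8.97 reads with DMSO, and the counting interval of the ratio of 2.16 was 0.853 to 5.54. With the longest transcript they were worth 71.4 reads with MA4-022-1 and 45.1 reads with DMSO, and the interval ran from 1.46 to 3.19, so whether the interval holds 1 depended on the assumed length. The log2 ratio of RPKM + 1 was 0.29, with a range over the alternatives from 0.07 with a pseudocount of 5 RPKM to 0.86 with one of 0.1 RPKM. The locus was chromosome 5 from 142657495 to 142815077 on hg19. The related mineralocorticoid receptor gene NR3C2, named after its values were seen, was higher than NR3C1 in both libraries, at 16.4 RPKM with MA4-022-1 and 16.2 RPKM with DMSO.

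**Figure D3:**
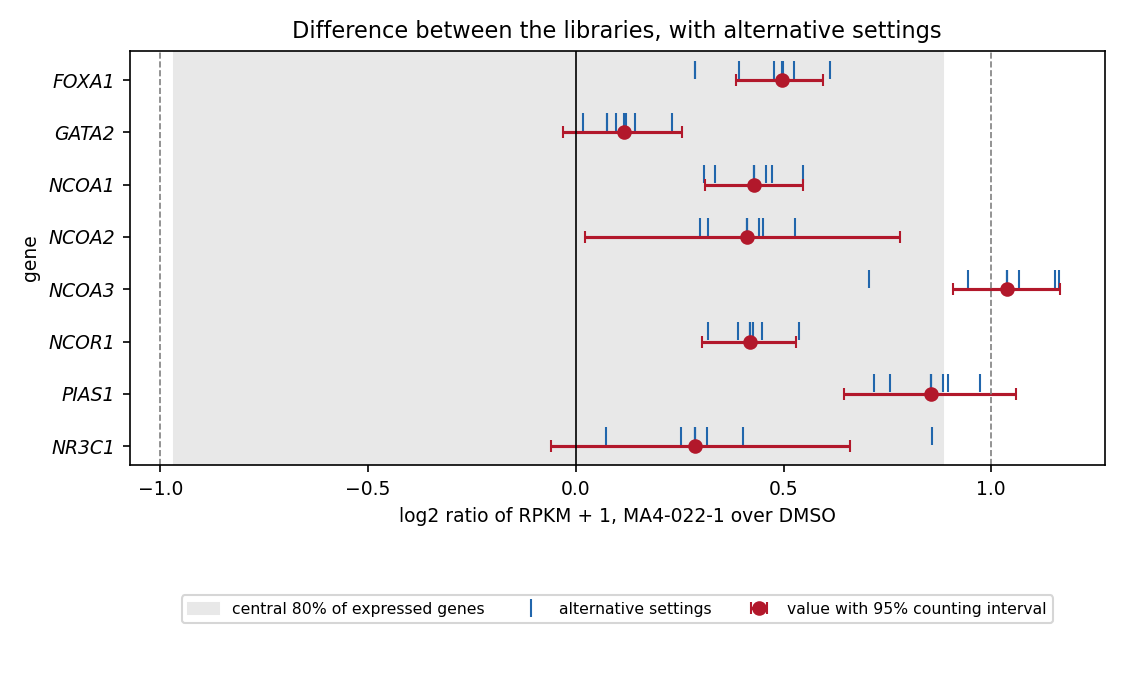
Log2 ratio of RPKM + 1, MA4-022-1 over DMSO, for each gene (red points, bars for the 95% counting interval), with the values under alternative settings (blue ticks) and the span of the central 80% of expressed genes (grey, -0.97 to 0.88). NCOA3 lies at 1.04, beyond that span, and PIAS1 at 0.86, just inside it.

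In order of level with MA4-022-1 the genes were FOXA1, NCOR1, PIAS1, GATA2, NCOA3, NCOA2, NCOA1 and NR3C1. With DMSO the order was FOXA1, NCOR1, GATA2, PIAS1, NCOA2, NCOA1, NCOA3 and NR3C1. Between the libraries the order differed for NCOA3 against its relatives and for PIAS1 against GATA2. The second change rested on the opposite-strand rows of GATA2. With its own-strand row alone, GATA2 at 15.1 RPKM with MA4-022-1 and 14.3 RPKM with DMSO was below PIAS1 in both libraries, and with DMSO it lay inside the counting interval of PIAS1, 13.1 to 16.4 RPKM. NCOA1 and NCOA2 did not differ beyond their counting intervals in either library. With 2 libraries a pattern is a pair of levels, and likeness was the summed absolute difference in log2 of RPKM + 1 over both. Of 7312 genes with 1 row and at least 5 RPKM in both libraries, MOV10, ZMIZ2 and KHDRBS3 were nearest to NCOA3, with summed differences of 0.11, 0.12 and 0.13. Nearest to GATA2 were DEF8, GDAP1 and KCTD10, with summed differences of 0.01, 0.03 and 0.04.

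The wider list of nuclear receptor coactivators, to which the p160 genes belong, was described by its counts. Of 61 genes listed, 54 had a row of their own name and 49 were expressed. Of these, 5 were at least 2-fold higher, 1 was at least 2-fold lower and 43 lay within 2-fold. Past 2-fold over all expressed genes were 7.72% upwards and 9.58% downwards, and over protein-coding symbols 4.12% and 9.5%. The median log2 ratio of the list was 0.19, against -0.02 over all expressed genes. NCOA3 was 1 of the 5. DDX5, an RNA helicase that acts as a coactivator, stood at 7189 RPKM with MA4-022-1 and 1977 RPKM with DMSO. CITED2, which binds EP300 and CREBBP, stood at 11.8 RPKM with MA4-022-1 and 4.02 RPKM with DMSO. PRMT2, an arginine methyltransferase, stood at 35.2 RPKM with MA4-022-1 and 13.5 RPKM with DMSO. The fifth was NCOA6, named after its values were seen, whose 2 rows summed to 17.5 RPKM with MA4-022-1 and 7.11 RPKM with DMSO. Its call rested on a row in the opposite strand run, at 12.7 RPKM with MA4-022-1 and 3.10 RPKM with DMSO, since its own-strand row had a log2 ratio of 0.22. On own-strand rows alone, 4 of 48 expressed coactivator genes were at least 2-fold higher. SMARCA2, a chromatin remodelling ATPase, was the lower gene, at 13.4 RPKM with MA4-022-1 and 29.02 RPKM with DMSO. NCOA4 and NCOA5, named for comparison with the p160 genes after their values were seen, had log2 ratios of -0.00 and 0.09.

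Of 41 expressed genes of corepressor complexes, the list that holds NCOR1, 1 was at least 2-fold higher, 2 were at least 2-fold lower and 38 lay within 2-fold. The median log2 ratio was 0.07, and -0.02 when the sums over the genes kept were made equal. EZH2, the histone methyltransferase of Polycomb complex PRC2, stood at 16.0 RPKM with MA4-022-1 and 42.001 RPKM with DMSO. MTA2, of the NuRD deacetylase complex, stood at 33.6 RPKM with MA4-022-1 and 77.1 RPKM with DMSO. The higher gene, TLE4, was named after its values were seen and stood at 2.03 RPKM with MA4-022-1 and 0.211 RPKM with DMSO.

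Of 24 expressed genes of the SUMO pathway, 2 were at least 2-fold higher, 1 was at least 2-fold lower and 21 lay within 2-fold. The median log2 ratio of -0.01 was above 0 under 2 of the 3 other scalings. Shares past 2-fold over all expressed genes were 7.72% higher and 9.58% lower. The PIAS family ranged widely. PIAS3, the relative of PIAS1 known for its binding of STAT3, stood at 21.4 RPKM with MA4-022-1 and 6.66 RPKM with DMSO, or 2.92-fold higher on the RPKM + 1 scale. Its value came from 1 row outside the run of its GRCh38 strand, and its other row was listed at 0 in both libraries. PIAS2 and PIAS4, named after their values were seen, had log2 ratios of 0.61 and 0.08. ZMIZ2, a coactivator with a PIAS-like zinc finger, stood at 11.8 RPKM with MA4-022-1 and 5.19 RPKM with DMSO. The activating enzyme of the pathway was on the other side of equal levels. SAE1, one of its subunits, stood at 58.9 RPKM with MA4-022-1 and 127.7 RPKM with DMSO. Its partner subunit UBA2, named after its values were seen, had a log2 ratio of -0.77, within 2-fold.

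Among 12 genes of the FOXA and GATA families and their FOG partners, 4 were expressed, and these were FOXA1, GATA2, ZFPM2 and TRPS1. On rows of its own strand run alone, ZFPM2 did not reach 1 RPKM in either library. None of the 4 passed 2-fold in either direction, and their log2 ratios were 0.50, 0.12, 0.29 and 0.08. FOXA1 and GATA2 were the only FOXA and GATA genes at 1 RPKM or more in either library.

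**Figure D4:**
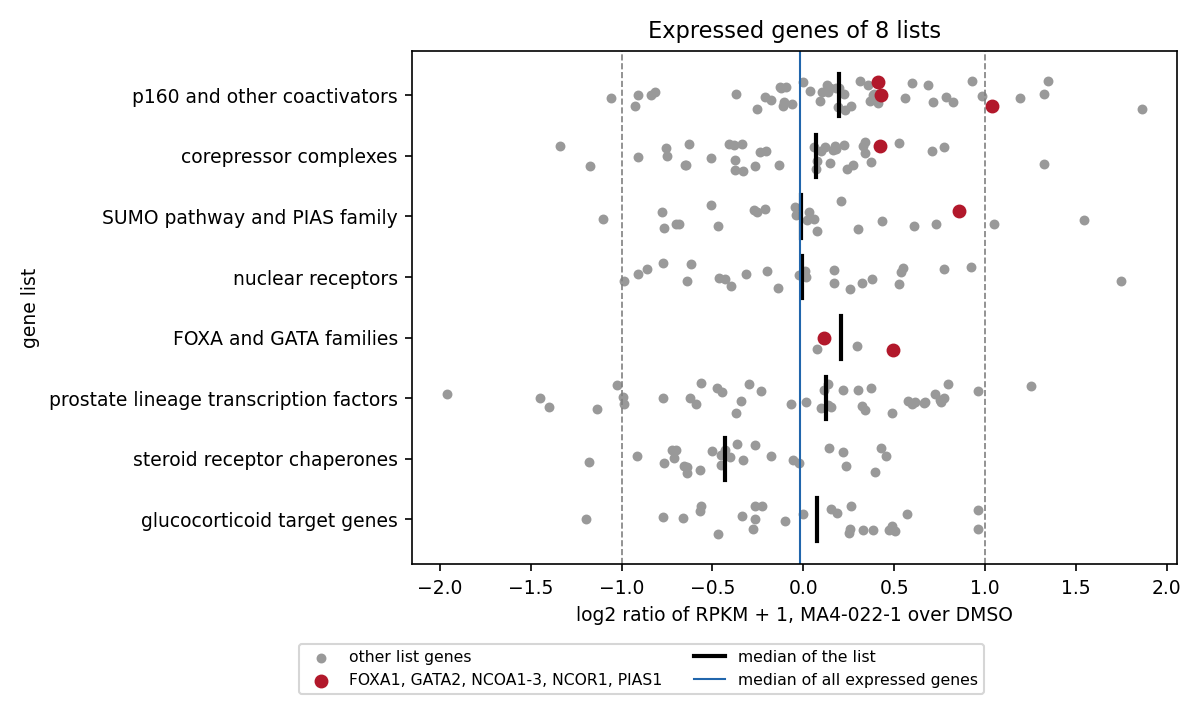
Log2 ratio of RPKM + 1, MA4-022-1 over DMSO, for the expressed genes of 8 lists (points, spread vertically only to be seen), with the median of each list (black bar), that of all expressed genes (blue line, -0.02) and the 2-fold limits (dashed). The genes of the group (red) all lie right of 0, and the chaperone list has the lowest median, at -0.43.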

How the data were processed

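Total RNA of C4-2B cells was depleted of ribosomal RNA and sequenced as single 50 nt reads on an Illumina HiSeq, per the labels' protocols. The submitters' processing notes name TopHat2 2.0.13, Cufflinks 2.2.1 and hg19. The authors deposited 1 table of RPKM per library, per the file headers, with a locus and a symbol for each row. No count test fits this unit.

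Rows of a symbol were summed. Rows without a symbol (23.3% of the summed RPKM with MA4-022-1 and 29.6% with DMSO) and short RNA symbols were left out of gene counts. Genes with at least 1 RPKM in a library were compared by log2 of RPKM + 1, which understates the change of low genes. The threshold was 2-fold. Totals came from processed pseudogenes of 600 to 6000 nt, where 91.5% of 201 low values with MA4-022-1 and 93.2% of 251 with DMSO lay within 2% of whole reads, up to 5. Reads used the median annotated transcript length of GENCODE release 29 less 200 or 198 nt. Exact Poisson intervals were given for levels and Clopper-Pearson intervals for ratios. Longest transcripts were added after seeing the data. The calculation was tested on simulated data.

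The 8 genes and 8 gene lists were chosen with earlier results of these data known. Named from lists were up to 3 genes per direction past 2-fold with at least 5 RPKM. The androgen receptor's own gene is not analysed here. Alternatives were pseudocounts, filters, scalings, row choices and thresholds. Python 3.11.15, numpy 2.4.6, pandas 2.3.3, scipy 1.17.1 and matplotlib 3.10.9 were used.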

Additional observations from a re-analysis of the deposited data

How the results depend on the processing

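All 7 expressed genes of the group stayed higher with MA4-022-1 under every setting run, and their median log2 ratio moved by less than a typical counting interval. Pseudocounts, filters and thresholds cannot turn the sign of a ratio, so only scalings and, for FOXA1 and GATA2, row choices could have. Of the 8 genes, 1 was at least 2-fold higher, and this was NCOA3. The number was 0 with a pseudocount of 5 RPKM, 0 with equal sums over the genes kept, 0 at a 3-fold threshold and 2, with PIAS1, at 1.5-fold. The log2 ratio of NCOA3 ranged from 0.71 with a pseudocount of 5 RPKM to 1.16 with one of 0.1 RPKM, that of PIAS1 from 0.72 to 0.97, and that of GATA2 from 0.02 to 0.23. FOXA1 ranged from 0.29 with its highest row alone, or with own-strand rows alone, an alternative chosen after seeing the data, to 0.61 with housekeeping controls set to 0. That scaling shifted all log2 ratios by 0.12, and equal sums changed the scale by a log2 factor of -0.10.

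Over all genes, 1192 lay past 2-fold in the higher direction and 1479 in the lower one. The higher and lower counts were 439 and 662 with a pseudocount of 5 RPKM, 2904 and 3191 at 1.5-fold, 377 and 514 at 3-fold, and 405 and 935 for protein-coding symbols. The higher count was 1954 with a pseudocount of 0.1 RPKM and 742 with a filter of 5 RPKM. Of all genes past 2-fold, 44.6% were higher as deposited, 57.1% with housekeeping controls set to 0 and 30.2% among protein-coding symbols. In the 8 lists, 10 of 233 expressed genes were higher and 11 lower, beside 7.72% and 9.58% of all expressed genes. The balance turned to 15 higher and 8 lower with housekeeping controls set to 0. It was 11 and 10 with the median of genes set to 0. With own-strand rows alone the counts were 9 and 11. They were 5 and 6 with a pseudocount of 5 RPKM, 35 and 46 at 1.5-fold, and 2 and 1 at 3-fold. The higher count was 16 with a pseudocount of 0.1 RPKM, and the lower count was 18 with equal sums. Thresholds, pseudocounts, filters and scalings applied to all genes move such counts by construction, and the cause of the other moves was not tested. No replicate could be left out with 1 library per group. No paired analysis was possible because each group has 1 library.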

Other observations

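The lists of genes that act around the receptor were described by counts. Beside them, 7.72% of all expressed genes passed 2-fold upwards and 9.58% downwards. Of 27 expressed chaperones of steroid receptors, 1 passed 2-fold, and it was lower with MA4-022-1. Their median log2 ratio was -0.43 and 6 of the 27 had a ratio above 0, beside 48.9% of all expressed genes. The median stayed below 0 under the 3 other scalings. BAG1, a cochaperone of HSP70, stood at 33.8 RPKM with MA4-022-1 and 77.8 RPKM with DMSO. Among 26 expressed nuclear receptors, 1 passed 2-fold, and it was higher, with a median of -0.01 whose sign turned with the scaling. PPARA, the fatty acid receptor, stood at 13.05 RPKM with MA4-022-1 and 3.18 RPKM with DMSO.

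Among 26 expressed targets of the glucocorticoid receptor, 1 passed 2-fold, and it was lower, with a median of 0.08 that turned to -0.00 with equal sums. TSC22D3, also called GILZ, stood at 38.6 RPKM with MA4-022-1 and 89.9 RPKM with DMSO. Of 42 expressed transcription factors of the prostate lineage, 1 passed 2-fold upwards and 5 downwards, with a median of 0.12. Over all expressed genes, 7.72% passed 2-fold upwards and 9.58% downwards. TBX3 stood at 97.9 RPKM with MA4-022-1 and 40.6 RPKM with DMSO. CREB3L4, an androgen-regulated factor of the endoplasmic reticulum, stood at 20.1 RPKM with MA4-022-1 and 80.9 RPKM with DMSO. FOXM1, a driver of mitotic genes, stood at 3.16 RPKM with MA4-022-1 and 10.4 RPKM with DMSO, and CEBPB at 3.32 RPKM with MA4-022-1 and 10.4 RPKM with DMSO.

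Rows that shared a deposited locus with a gene of the group were read after their values were seen, and only some are named. In the FOXA1 locus, TTC6, in the run of the opposite strand, stood at 76.2 RPKM with MA4-022-1 and 49.8 RPKM with DMSO. There the noncoding LINC00517 stood at 2.75 RPKM with MA4-022-1 and 0.774 RPKM with DMSO. In the GATA2 locus, RP11-475N22.4, in the run of the opposite strand, was lower at 11.7 RPKM with MA4-022-1 and 19.6 RPKM with DMSO, while GATA2 itself was nearly level. In the NCOA3 locus, SULF2, in the run of the opposite strand, stood at 4.51 RPKM with MA4-022-1 and 1.67 RPKM with DMSO. The pseudogene BTF3P12, in the opposite run of the NCOA2 locus, stood at 1.88 RPKM with MA4-022-1 and 0.138 RPKM with DMSO.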
